A study of Mus musculus with 24 samples.

Results

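The 46 genes described here drive or mark the cell division cycle, and they were chosen by symbol from a count table of whole mouse liver that holds 56205 genes. All 46 had a row, and all passed the filter of at least 1 count in at least 12 libraries that left 17913 genes for testing. By role they were 7 regulators of the passage from G1 into S phase, 16 S phase genes, 21 mitosis genes and 2 general proliferation markers. The libraries came from C57BL/6J mice, an inbred wild-type strain, of both sexes. For 20 weeks, 12 mice ate a high-fat diet rich in palm oil, fructose and cholesterol, which gives mice a fatty and fibrotic liver, and 12 ate its control diet. Feeding began at 8 to 10 weeks of age. Each library was made from poly(A)-selected RNA of a whole liver, and the labels name no transgene, deletion or drug.

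A cell that divides first copies its DNA in S phase and then separates the copies in mitosis. D and E cyclins with their kinases release the E2F factors, which switch on the genes for loading the MCM2 to MCM7 helicase, for unwinding DNA and for making nucleotides. Later, the MYB-MuvB complex and Foxm1 switch on the mitosis genes through promoter elements called the CCAAT box and the cell cycle homology region (CHR). Hepatocytes of an adult liver are mostly out of the cycle but can enter it again after injury or loss of tissue, and macrophages, bile duct cells, stellate cells and blood precursors in the liver can divide as well. RNA of a whole liver does not tell these cells apart.

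Depth was 16490817 to 21213070 counts in the high-fat and 14468418 to 22112552 in the control libraries. Levels are given as CPM, counts per 1000000 of the library total after scaling by edgeR's TMM method, and a fold change is high-fat minus control on the log2 scale. The series covers both sexes, but no label gives the sex of a library, and libraries fell into 2 sets by Xist, an RNA of the X chromosome. Replicates 1 to 6 of both diets had over 1000 Xist counts and no count of the Y-linked Ddx3y, and replicates 7 to 12 had at most 3 Xist counts and at least 448 of Ddx3y. These sets hold 6 libraries per diet each and are called Xist-high and Xist-low here. High-fat diet replicate 3 stood apart from all other libraries. Its neutrophil markers summed to 233 CPM, against at most 4.34 in any other library, and its erythroid markers to 3743 CPM, against 146.2 to 960.4 in the others. Control diet replicate 10 had the lowest depth and the lowest TMM factor (0.679). Several results that rest on either library are given with and without it. The Xist-low set was not fitted without control diet replicate 10.

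On the high-fat diet, 31 of the 46 genes were higher and 1 was lower, and 14 did not pass the test (quasi-likelihood test of edgeR, p adjusted after Benjamini and Hochberg, at most 0.01, and a log2 fold change beyond 0.5 in either direction). Over all genes tested, 13.2% were called higher and 4.99% lower. The median log2 fold change of the 46 genes was 1.39, beside -0.03 for all genes. The change was uneven along the cycle. All 21 mitosis genes were higher, with a median log2 fold change of 2.26. Of the 16 S phase genes 7 were higher and 1 was lower, with a median of 0.47, and of the 7 G1/S regulators 1 was higher, with a median of -0.22. In the S phase group the higher genes were those of helicase loading, 5 of the 6 subunits MCM2 to MCM7 with their loaders Cdc6 and Cdt1, while 0 of the 4 genes of nucleotide synthesis passed the test. No test was made of one role against another, since the roles were drawn up with earlier results of these data known. Scaling by library totals alone moved the median of all genes to 0.26 and gave 3827 higher and 226 lower genes in place of 2372 and 894. The median of the mitosis genes was then 2.56 and that of the S phase genes 0.76, with 34 of the 46 genes higher and none lower. Without high-fat diet replicate 3, 31 of the 46 genes were again called higher, including all 21 mitosis genes, and none was lower.

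**Figure D1:**
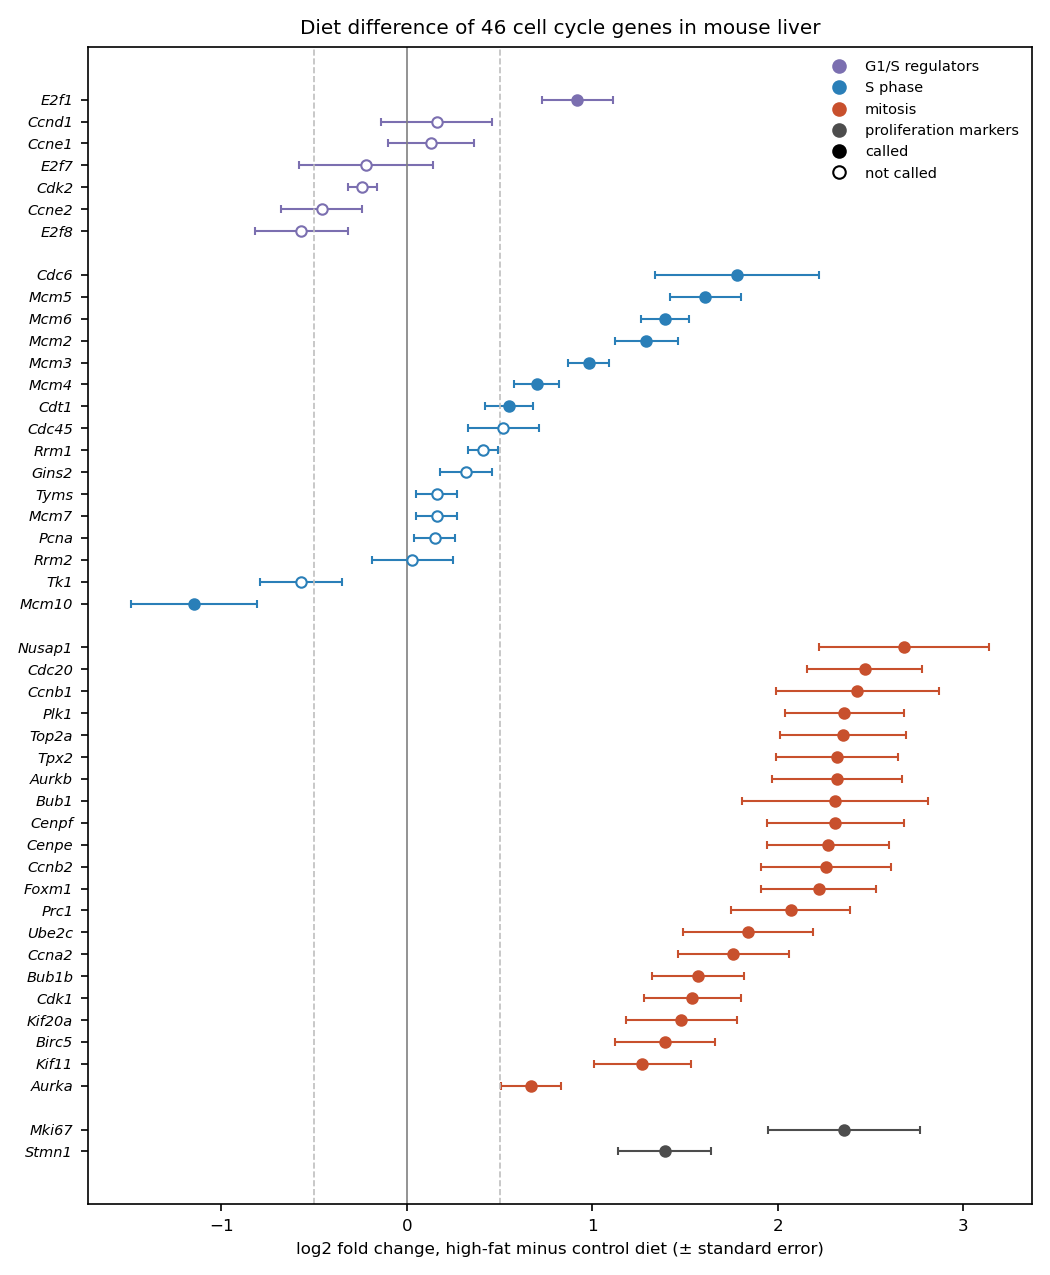
Log2 fold change of each of the 46 genes, high-fat minus control diet (horizontal axis, points with standard error bars, 12 libraries per diet), grouped and coloured by role. Filled points passed the test and dashed lines mark a log2 fold change of 0.5 in either direction. The mitosis genes run from 0.67 for Aurka to 2.68 for Nusap1, while the S phase genes spread from -1.15 for Mcm10 to 1.78 for Cdc6.

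The DNA replication helicase gave the clearest separation of the diets. Mcm6, a subunit of the ring that unwinds DNA, had 9.023 CPM in the lowest, 12.34 in the median and 20.46 in the highest high-fat library, against 3.155, 4.727 and 6.136 on the control diet. Its log2 fold change was 1.39 (standard error, SE, 0.13, edgeR adjusted p = 1.08e-07). Mcm2 ranged from 6.582 over a median of 9.372 to 14.04 CPM in high-fat and from 2.036 over 3.648 to 6.54 in control libraries, with a log2 fold change of 1.29 (SE 0.17, edgeR adjusted p = 3.43e-06). Mcm3 ranged from 7.12 over 8.187 to 12 CPM against 3.223 over 4.187 to 5.536, with a log2 fold change of 0.98 (SE 0.11, edgeR adjusted p = 4.78e-07). For these 3 subunits every high-fat library lay above every control library. That held for 5 of the 46 genes, the other 2 being Top2a and Cdc20, and for 1.48% of all genes tested. Mcm5 came close, with 11 of 12 high-fat libraries above the highest control library, which was replicate 7 at 5.189 CPM. Its medians were 6.745 CPM under the high-fat and 2.207 under the control diet, a log2 fold change of 1.61 (SE 0.19, edgeR adjusted p = 1.05e-06). Mcm4 rose less, by 0.70 (SE 0.12, edgeR adjusted p = 8.41e-05), with medians of 6.819 and 4.251 CPM.

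Mcm7 alone among the 6 subunits did not pass the test. It had medians of 17.48 CPM on the high-fat and 15.25 on the control diet. Its log2 fold change was 0.16 (SE 0.11, edgeR adjusted p = 0.266), and 0.12 to 0.25 with any 1 of the 24 libraries left out. The highest control value of Mcm7, 26.77 CPM, was that of control diet replicate 10. The exons of Mcm7 share bases with those of Cops6 and Ap4m1 on the opposite strand. Neither neighbour was called, and without knowledge of the strand setting reads in the shared bases cannot be assigned to one of them. Summed over the 6 subunits, the high-fat libraries had 50.92 to 90.99 CPM (median 60.91) and the control libraries 30.5 to 46.97 (median 34.64), without overlap. High-fat diet replicate 4, in the Xist-high set, had the highest level of Mcm2, Mcm3, Mcm4, Mcm5 and Mcm6.

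The promoters of the 3 subunits that separated the diets fully are shown because S phase genes are known for E2F and CCAAT elements near their start. Each covers 250 bases before to 50 bases after the start of the gene in RefSeq (GRCm38.p6), read along the gene's strand. Capitals mark matches on either strand. The CCAAT box was searched by its letters, the CHR as TTTGAA and in a second form as TTCGAA. E2F was searched as TTTGGCGC, TTTCCCGC, TTTCGCGC or TTTGCCGC. Mcm6 (ENSMUSG00000026355) lies on the minus strand at chr1:128359656-128359955, Mcm2 (ENSMUSG00000002870) on the minus strand at chr6:88898731-88899030, and Mcm3 (ENSMUSG00000041859) on the minus strand at chr1:20820263-20820562.
Mcm6: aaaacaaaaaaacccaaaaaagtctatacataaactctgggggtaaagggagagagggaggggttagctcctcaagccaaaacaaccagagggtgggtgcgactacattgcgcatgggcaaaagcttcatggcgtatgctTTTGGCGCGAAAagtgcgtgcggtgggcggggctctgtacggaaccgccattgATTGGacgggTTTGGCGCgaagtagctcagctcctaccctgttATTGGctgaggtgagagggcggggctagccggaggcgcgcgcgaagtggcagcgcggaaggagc
Mcm2: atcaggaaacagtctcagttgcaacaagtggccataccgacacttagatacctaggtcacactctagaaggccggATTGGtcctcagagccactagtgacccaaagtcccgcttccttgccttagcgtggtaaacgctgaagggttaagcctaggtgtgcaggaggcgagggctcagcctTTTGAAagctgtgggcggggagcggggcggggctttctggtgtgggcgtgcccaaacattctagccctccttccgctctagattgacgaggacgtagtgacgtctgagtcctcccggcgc
Mcm3: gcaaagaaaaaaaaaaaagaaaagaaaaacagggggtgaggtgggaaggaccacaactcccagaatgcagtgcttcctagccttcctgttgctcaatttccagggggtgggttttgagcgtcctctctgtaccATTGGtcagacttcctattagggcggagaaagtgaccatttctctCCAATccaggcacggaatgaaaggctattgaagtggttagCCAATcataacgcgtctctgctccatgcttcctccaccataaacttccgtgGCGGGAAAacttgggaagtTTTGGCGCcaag
Mcm6 had 3 E2F matches, the first bases of which lay 110, 106 and 47 bases before the start, and the first and second of them overlap on opposite strands. Mcm3 had 2, at 20 and 39 bases after it. Mcm2 had none of these E2F letters but a CHR match 70 bases before the start.

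The loading of the helicase onto DNA needs Cdc6 and Cdt1, and both were higher. Cdc6 was the least abundant of the S phase genes, with a median of 4.5 counts per control library and none in the lowest. Its level ran from 0.1583 over 0.7705 to 2.611 CPM in high-fat and from 0 over 0.2553 to 0.5663 in control libraries. The log2 fold change was 1.78 (SE 0.44, edgeR adjusted p = 0.0025), the largest of the S phase genes with all libraries, while 8 control libraries lay above the lowest high-fat library. The value of 2.611 CPM was that of high-fat diet replicate 3. Without it the largest log2 fold change of the S phase genes was 1.60, which was also the largest within MCM2 to MCM7. In the Xist-high set Cdc6 had 1.87 with this library and 0.99 without it, and neither passed. With any 1 of the 24 libraries left out, Cdc6 was at 1.49 to 1.97. Cdt1 had medians of 6.759 and 4.733 CPM and a log2 fold change of 0.55 (SE 0.13, edgeR adjusted p = 0.00152). Cdc45 and Gins2, partners of the helicase at the moving fork, did not pass the test. The log2 fold change of Cdc45 was 0.52 (SE 0.19, edgeR adjusted p = 0.031) and that of Gins2 was 0.32 (SE 0.14, edgeR adjusted p = 0.075). Of the 4097 exon bases of Gins2, 2758 are shared with Gse1 on the other strand, a gene with a log2 fold change of -0.40 that was not called.

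The genes of nucleotide synthesis and the sliding clamp stood apart from the helicase. Pcna, the clamp that holds DNA polymerase, had medians of 34.17 CPM on the high-fat and 27.84 on the control diet. Its log2 fold change was 0.15 (SE 0.11, edgeR adjusted p = 0.312), and 0.11 to 0.26 with any 1 of the 24 libraries left out. The highest control value of Pcna, 56.39 CPM, was that of control diet replicate 10. Rrm1, the large subunit of ribonucleotide reductase, had medians of 10.03 and 7.673 CPM. Its adjusted p passed (4.06e-04, edgeR) but its log2 fold change of 0.41 (SE 0.08) was under 0.5, and 9 of 12 high-fat libraries lay above the highest control library. Rrm2, the cell cycle regulated subunit of the same enzyme, had medians of 8.292 and 8.381 CPM and a log2 fold change of 0.03 (SE 0.22, edgeR adjusted p = 0.934). Its highest value, 19.24 CPM, was that of high-fat diet replicate 3, and without that library the log2 fold change was -0.14. Tyms, which makes thymidylate, had a log2 fold change of 0.16 (SE 0.11, edgeR adjusted p = 0.254). For Tk1, thymidine kinase, the log2 fold change was -0.57 (SE 0.22, edgeR adjusted p = 0.0392).

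Mcm10 (ENSMUSG00000026669), a factor needed to start unwinding at origins, was the only one of the 46 genes called lower. Its levels ran from 21.58 over 39.31 to 50.56 CPM in high-fat and from 24.83 over 62.88 to 343.3 in control libraries, a log2 fold change of -1.15 (SE 0.34, edgeR adjusted p = 0.00951). The control libraries split by Xist. In the Xist-high set they had 31.5, 32.83, 31.24, 41.7, 24.83 and 29.76 CPM, and the high-fat libraries 31.5, 33.29, 21.58, 36.73, 33.97 and 32.94. In the Xist-low set the control libraries had 84.05, 91.85, 134.6, 343.3, 98.26 and 91.22 CPM, and the high-fat libraries 44.99, 49.1, 41.88, 43.88, 50.56 and 44.44. The diets overlapped in the first set, where the log2 fold change was 0 to 2 decimals (SE 0.13, edgeR adjusted p = 0.987). They did not overlap in the second, where it was -1.60 (SE 0.31, edgeR adjusted p = 9.65e-04). The difference between the sets, tested as an interaction of diet and set, was -1.60 (SE 0.35, edgeR adjusted p = 0.00441). Mcm10 was the only one of the 46 genes with an interaction at an adjusted p of at most 0.01, which 4.06% of all genes tested reached. The value of 343.3 CPM was that of control diet replicate 10, and without it the interaction was -1.11 (SE 0.18, edgeR adjusted p = 3.85e-04). The diet difference over the remaining libraries of both sets was then -0.70 and no longer passed (edgeR adjusted p = 0.0296). With all libraries it was -0.73 (edgeR adjusted p = 0.06) when scaled by library totals and -0.72 by limma-voom (adjusted p = 0.0752). That call was also lost when any 1 of 17 other libraries was left out, at a log2 fold change of -1.18 to -1.08.

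Tk1 was called lower in the Xist-low set and not in the Xist-high set, and the difference between the sets did not pass. In the Xist-low set it had 10.08 to 14.66 CPM on the high-fat diet (median 11.93) and 11.27 to 44.58 on the control diet (median 22.95), a log2 fold change of -1.04 (SE 0.26, edgeR adjusted p = 0.00543). The value of 44.58 CPM was that of control diet replicate 10, and the next highest of these control libraries had 30.65. In the Xist-high set Tk1 had 22.75 to 32.02 CPM (median 26.06) against 27.16 to 36.57 (median 32.77), a log2 fold change of -0.27 (SE 0.10, edgeR adjusted p = 0.0802). The interaction was -0.78 (edgeR adjusted p = 0.081). It passed only with control diet replicate 11 left out, at -0.93 (edgeR adjusted p = 0.0084). Of the 5198 exon bases of Tk1, 83 lie opposite Afmid, which had a log2 fold change of -0.52 and was not called.

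**Figure D2:**
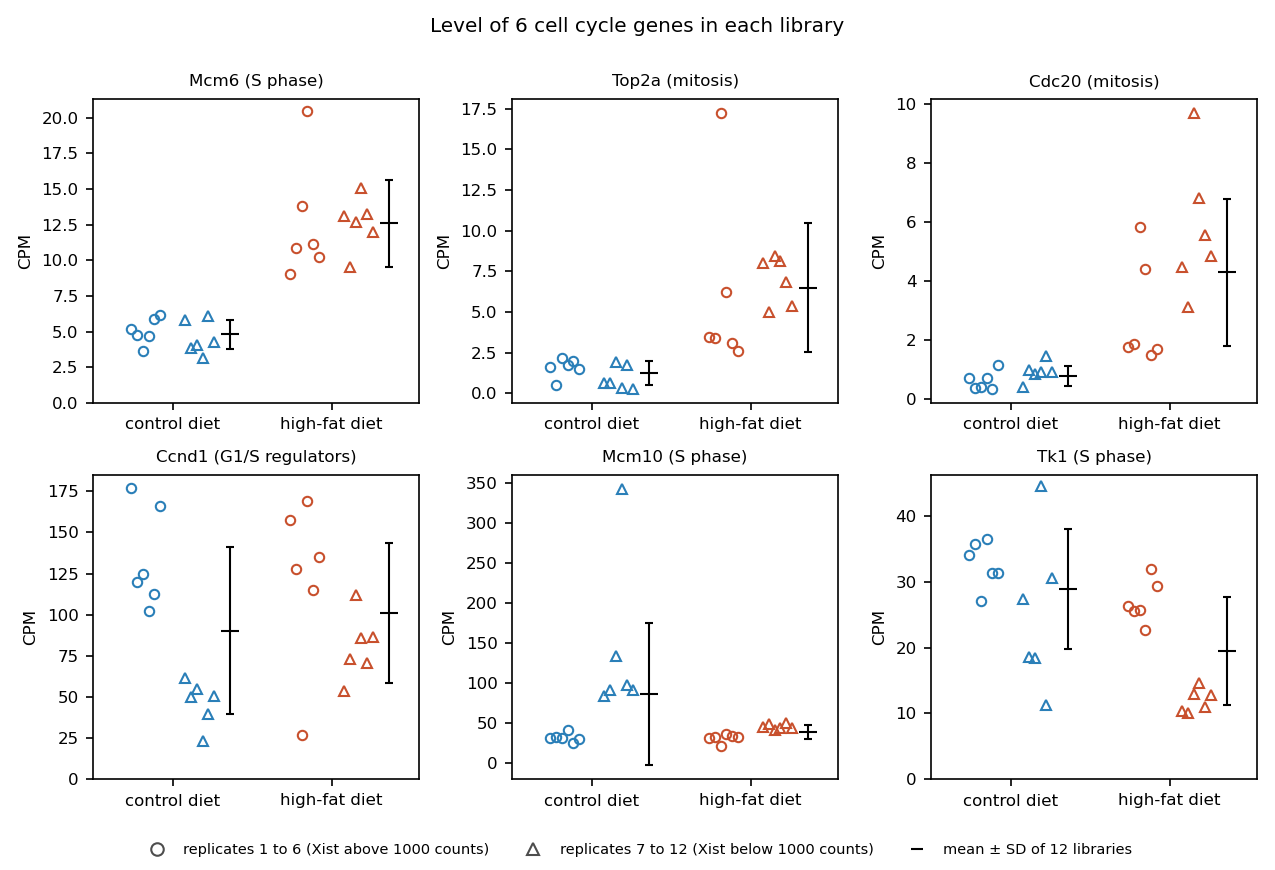
Level in CPM (vertical axis) of Mcm6, Top2a, Cdc20, Ccnd1, Mcm10 and Tk1 in each of the 12 control and 12 high-fat libraries, with circles for replicates 1 to 6, triangles for replicates 7 to 12, and the mean with SD at the right of each group. The diets do not overlap for Mcm6, Top2a and Cdc20, Mcm10 separates them only among the triangles, and 1 control triangle of Mcm10 lies at 343.3 CPM.

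The mitosis genes rose together, from low levels. Per kilobase of exon, their median level was 0.1389 CPM per kb in control and 0.5785 in high-fat libraries, while the median S phase gene went from 1.183 to 2.226 CPM per kb. In 11 of the 31 genes called higher the median control library held fewer than 10 counts. Summed over the 21 genes, the control libraries had 10.92 to 23.96 CPM (median 16.13) and the high-fat libraries 26.02 to 128.8 CPM (median 57.43), without overlap. Between 6 and 12 of the 12 high-fat libraries lay above the highest control library for each gene, with 12 for Top2a and Cdc20 and 6 for Aurka.

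Top2a, the topoisomerase that untangles sister DNA before it is separated, ran from 2.607 over 5.789 to 17.26 CPM in high-fat and from 0.2631 over 1.549 to 2.163 in control libraries. Its log2 fold change was 2.35 (SE 0.34, edgeR adjusted p = 9.1e-06). Cdc20, which activates the ligase that starts anaphase, ran from 1.506 over 4.46 to 9.719 CPM against 0.3522 over 0.8003 to 1.472. Its log2 fold change was 2.47 (SE 0.31, edgeR adjusted p = 2.14e-06). Nusap1, which bundles spindle microtubules, had the largest log2 fold change, 2.68 (SE 0.46, edgeR adjusted p = 6.08e-05), from a median of 4 counts per control library. The high-fat libraries had 0.3166 to 3.89 CPM of Nusap1 (median 1.528) and the control libraries 0 to 0.6559 (median 0.214). Of its 4059 exon bases 172 lie opposite Oip5, which was itself called higher at 1.94 with a mean of 6.292 counts per library. In all, 18 of the 46 genes share exon bases with another gene, and 4 have pseudogenes of the same symbol with at most 25 counts in any library, so reads of these genes may be split.

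The promoters of these 3 genes are shown with the same marks, since the CCAAT and CHR elements are those through which mitosis genes are known to be timed. Cdc20 (ENSMUSG00000006398) lies on the minus strand at chr4:118437294-118437593, Top2a (ENSMUSG00000020914) on the minus strand at chr11:99024140-99024439, and Nusap1 (ENSMUSG00000027306) on the plus strand at chr2:119618048-119618347.
Cdc20: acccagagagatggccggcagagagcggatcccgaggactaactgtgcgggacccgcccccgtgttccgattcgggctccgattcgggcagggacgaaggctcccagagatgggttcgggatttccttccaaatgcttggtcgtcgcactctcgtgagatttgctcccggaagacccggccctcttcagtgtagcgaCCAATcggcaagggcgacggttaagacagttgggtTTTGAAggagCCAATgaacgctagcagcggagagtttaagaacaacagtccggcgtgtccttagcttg
Top2a: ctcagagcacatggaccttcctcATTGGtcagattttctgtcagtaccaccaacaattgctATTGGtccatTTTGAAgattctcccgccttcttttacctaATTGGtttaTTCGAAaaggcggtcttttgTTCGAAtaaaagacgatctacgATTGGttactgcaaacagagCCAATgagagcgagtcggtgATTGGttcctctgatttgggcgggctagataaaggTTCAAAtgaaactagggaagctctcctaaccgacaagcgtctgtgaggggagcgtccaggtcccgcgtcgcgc
Nusap1: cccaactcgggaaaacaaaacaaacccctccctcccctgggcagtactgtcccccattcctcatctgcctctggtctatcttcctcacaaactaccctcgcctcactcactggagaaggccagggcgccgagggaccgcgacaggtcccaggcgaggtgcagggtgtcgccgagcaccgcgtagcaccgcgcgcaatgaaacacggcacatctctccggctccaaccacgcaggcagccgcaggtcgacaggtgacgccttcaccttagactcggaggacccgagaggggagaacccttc
Top2a held 6 CCAAT and 4 CHR matches and Cdc20 held 2 CCAAT matches around 1 CHR match, while Nusap1 held none of the letters searched. RefSeq gave a promoter for 36 of the 46 genes. A CHR match was present in 12 of the 16 mitosis promoters (75%), in 3 of the 14 S phase promoters (21.4%) and in 21.7% of the promoters of all 27025 genes. In all 12 mitosis promoters with a CHR match a CCAAT match was also present, a pair held by 8.61% of all genes. CCAAT, with or without a CHR match, was counted in 14 of 16 mitosis promoters (87.5%), 10 of 14 S phase promoters (71.4%) and 41.1% of all. E2F matches were held by 1 of 16 mitosis promoters (6.25%), 6 of 14 S phase promoters (42.9%) and 2.6% of all. A match is a run of letters in this window and not a measured site.

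Among the cyclins and kinases that start mitosis, Ccnb1 had medians of 2.108 CPM on the high-fat and 0.409 on the control diet and a log2 fold change of 2.43 (SE 0.44, edgeR adjusted p = 1.19e-04). Ccnb2, the second B cyclin, had 3.202 and 0.6669 CPM and a log2 fold change of 2.26 (SE 0.35). Their kinase Cdk1 had 4.003 and 1.164 CPM and a log2 fold change of 1.54 (SE 0.26), and Ccna2, the A cyclin of S and G2 phase, had 4.078 and 1.16 CPM and a log2 fold change of 1.76 (SE 0.30). Foxm1, a transcription factor of the mitosis genes, had 2.49 and 0.493 CPM and a log2 fold change of 2.22 (SE 0.31). Plk1, the kinase that drives entry into mitosis, had 2.713 and 0.4283 CPM and a log2 fold change of 2.36 (SE 0.32). For these 6 genes the edgeR adjusted p ran from 4.97e-06 for Plk1 to 1.19e-04 for Ccnb1.

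The Aurora kinases differed from each other in size. Aurkb, which corrects the attachment of chromosomes, had a log2 fold change of 2.32 (SE 0.35, edgeR adjusted p = 1.45e-05), and its partner Birc5 one of 1.39 (SE 0.27, edgeR adjusted p = 2.03e-04). Aurka, which acts at the spindle poles, had the smallest change of the mitosis genes, 0.67 (SE 0.16, edgeR adjusted p = 0.00206), from the highest control level per kilobase of this group, 0.9 CPM per kb. Medians of Aurka were 3.331 and 2.338 CPM. Tpx2, its activator on spindle microtubules, had 2.685 and 0.5231 CPM and a log2 fold change of 2.32 (SE 0.33, edgeR adjusted p = 7.71e-06).

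The spindle checkpoint kinases Bub1 and Bub1b had log2 fold changes of 2.31 (SE 0.50) and 1.57 (SE 0.25). Bub1 rested on a median of 2 counts per control library. The kinetochore proteins Cenpe and Cenpf had 2.27 (SE 0.33) and 2.31 (SE 0.37). Of the motors, Kif11, which pushes the spindle poles apart, had 1.27 (SE 0.26), and Kif20a, which acts as the daughter cells separate, had 1.48 (SE 0.30). Of the 4338 exon bases of Kif20a, 1271 lie opposite Cdc23, which was not called. Prc1, which bundles the central spindle, had 2.07 (SE 0.32), and Ube2c, the enzyme that supplies ubiquitin for the destruction of B cyclins, had 1.84 (SE 0.35). For these 8 genes the edgeR adjusted p ran from 9.38e-06 for Cenpe to 6.79e-04 for Bub1.

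Mki67, the antigen Ki-67 that is used to count dividing cells, ran from 1.955 over 5.523 to 26.11 CPM in high-fat and from 0.3784 over 1.308 to 2.548 in control libraries. Its log2 fold change was 2.36 (SE 0.41, edgeR adjusted p = 6.88e-05), and 8 of 12 high-fat libraries lay above the highest control library. The value of 26.11 CPM was that of high-fat diet replicate 3. Stmn1, a microtubule destabiliser of dividing cells, had medians of 16.17 and 5.125 CPM and a log2 fold change of 1.39 (SE 0.25, edgeR adjusted p = 8.97e-05).

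**Figure D3:**
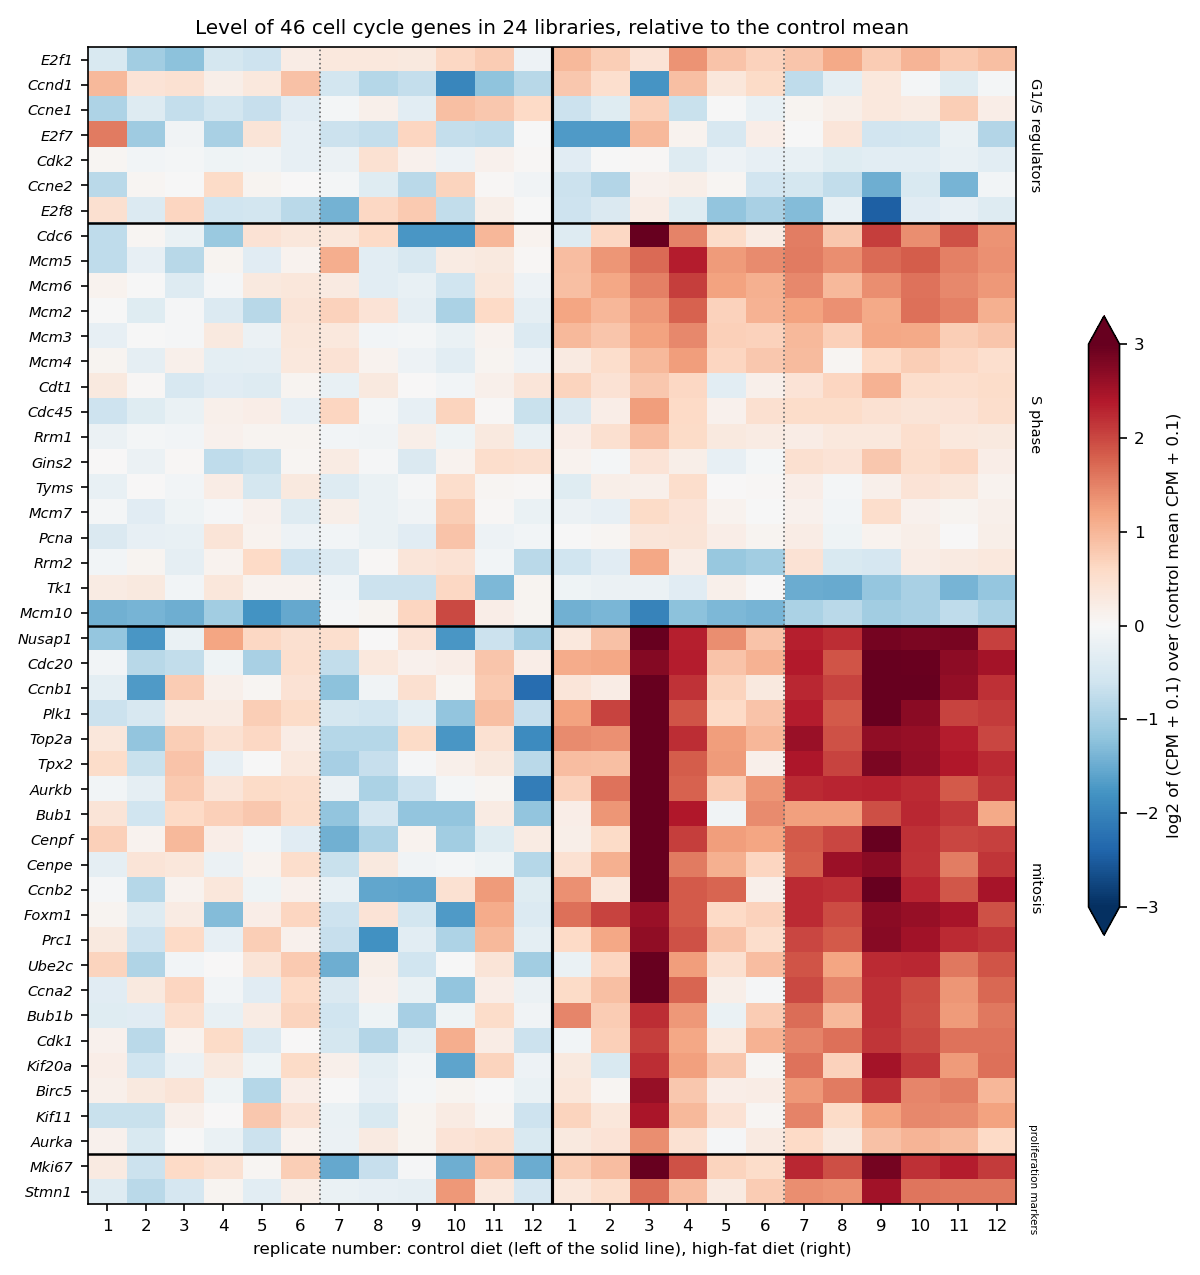
Level of each of the 46 genes (rows, grouped by role and ordered by fold change) in each library (columns, numbered by replicate, with a dotted line between replicates 6 and 7), as the log2 ratio to the control mean after adding 0.1 CPM; colours are clipped at 3 in either direction. The mitosis block is mostly red across the high-fat libraries and darkest in replicate 3. A few of its values in high-fat replicates 1 to 6 lie below the control mean, such as Kif20a in replicate 2 (0.7778 against 1.106 CPM). MCM2 to MCM6 lie above the control mean in all 12 high-fat libraries, Mcm4 in replicate 8 only just. Mcm10 is blue in all high-fat libraries and in control replicates 1 to 6.

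The G1/S regulators, which decide on entry into the cycle, showed no common direction. E2f1, the E2F factor that activates replication genes, was the one that passed the test. It ran from 4.423 over 6.009 to 8.512 CPM in high-fat and from 1.346 over 3.417 to 5.663 in control libraries, a log2 fold change of 0.92 (SE 0.19, edgeR adjusted p = 4.95e-04). In the Xist-high set its log2 fold change was 1.44 (edgeR adjusted p = 0.00132) and in the Xist-low set 0.55 (edgeR adjusted p = 0.0117), and the interaction of -0.90 did not pass (edgeR adjusted p = 0.0417). It passed only without control diet replicate 6, at -1.14 (edgeR adjusted p = 0.00656). The repressors E2f7 and E2f8 had log2 fold changes of -0.22 (edgeR adjusted p = 0.653) and -0.57 (edgeR adjusted p = 0.0753). Of the 5443 exon bases of E2f8, 610 lie opposite Gm2788, which was called lower at -0.71. Ccne1, Ccne2 and their kinase Cdk2 had log2 fold changes of 0.13, -0.46 and -0.24, and the lowest edgeR adjusted p of these 3 was 0.0179 for Cdk2.

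Ccnd1, the cyclin through which growth signals reach the cycle, had the highest level per kilobase of the 46 genes on both diets, 19.14 CPM per kb on the control and 21.45 on the high-fat diet. Its levels followed the Xist sets. The control libraries had 102.4 to 177.3 CPM in the Xist-high set and 23.11 to 61.3 in the Xist-low set. The value of 23.11 CPM was that of control diet replicate 10, and the next lowest control library of that set had 39.25. The Xist-low set was not fitted without this replicate. The high-fat libraries had 26.43 to 169.4 CPM in the Xist-high and 53.34 to 111.7 in the Xist-low set. Over all libraries the log2 fold change was 0.16 (SE 0.30, edgeR adjusted p = 0.693). In the Xist-low set Ccnd1 was called higher, at 0.80 (SE 0.21, edgeR adjusted p = 0.00857), and in the Xist-high set the value was -0.13 (edgeR adjusted p = 0.826), or 0.08 without high-fat diet replicate 3 (edgeR adjusted p = 0.759). The interaction of 0.92 did not pass (edgeR adjusted p = 0.151). The value of 26.43 CPM was that of high-fat diet replicate 3, whose 496 counts compare with 2056 to 3403 in the other 5 high-fat libraries of its set.

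Within each set of libraries the S phase and mitosis genes were tested again with 6 libraries per diet. In the Xist-low set 20 of the 21 mitosis genes were higher, with a median log2 fold change of 2.64, and Aurka was not called (0.65, edgeR adjusted p = 0.0189). Of the S phase genes 5 were higher and 2, Mcm10 and Tk1, were lower. Over all 46 genes 28 were higher and 2 lower, where 14.4% of all genes were called higher and 7.99% lower. In the Xist-high set 2 of the 21 mitosis genes passed, Cdc20 at 2.17 (edgeR adjusted p = 0.00327) and Foxm1 at 1.86 (edgeR adjusted p = 0.00753), while all 21 had a fold change above 0 and the median was 1.65. There 9 of the 46 genes were higher and none lower, where 2.9% of all genes were called higher and 0.882% lower. The helicase genes held in both sets: MCM2 to MCM6 were all called higher in the Xist-high set, and all but Mcm4 in the Xist-low set (0.61, edgeR adjusted p = 0.0132).

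The fold change was larger in the Xist-low set for 20 of the 21 mitosis genes, and the interaction passed for none of them, with an unadjusted p under 0.05 for 5 (edgeR). High-fat diet replicate 3 had the highest level of its set for all 21. Its mitosis sum was 128.8 CPM, against 26.02 to 53.51 in the other 5 high-fat libraries of the Xist-high set and 52.57 to 99.51 in the 6 of the Xist-low set. Without this library the median of the mitosis genes in the Xist-high set was 0.99 rather than 1.65, and 3 of 21 were called higher there, Cdc20, Top2a and Foxm1. All genes tested gave 3.81% higher in that fit. The interaction was then above 0 for all 21 mitosis genes and had an unadjusted p under 0.05 for 17 (edgeR). It passed for Tpx2 at 2.0 (SE 0.47, edgeR adjusted p = 0.0067) and Birc5 at 1.41 (SE 0.33, edgeR adjusted p = 0.00602). Over all genes tested, only the share that passed with all 24 libraries was counted, and it was 4.06%. The counts by sign and unadjusted p, and those without this library, therefore have no share over all genes beside them.

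**Figure D4:**
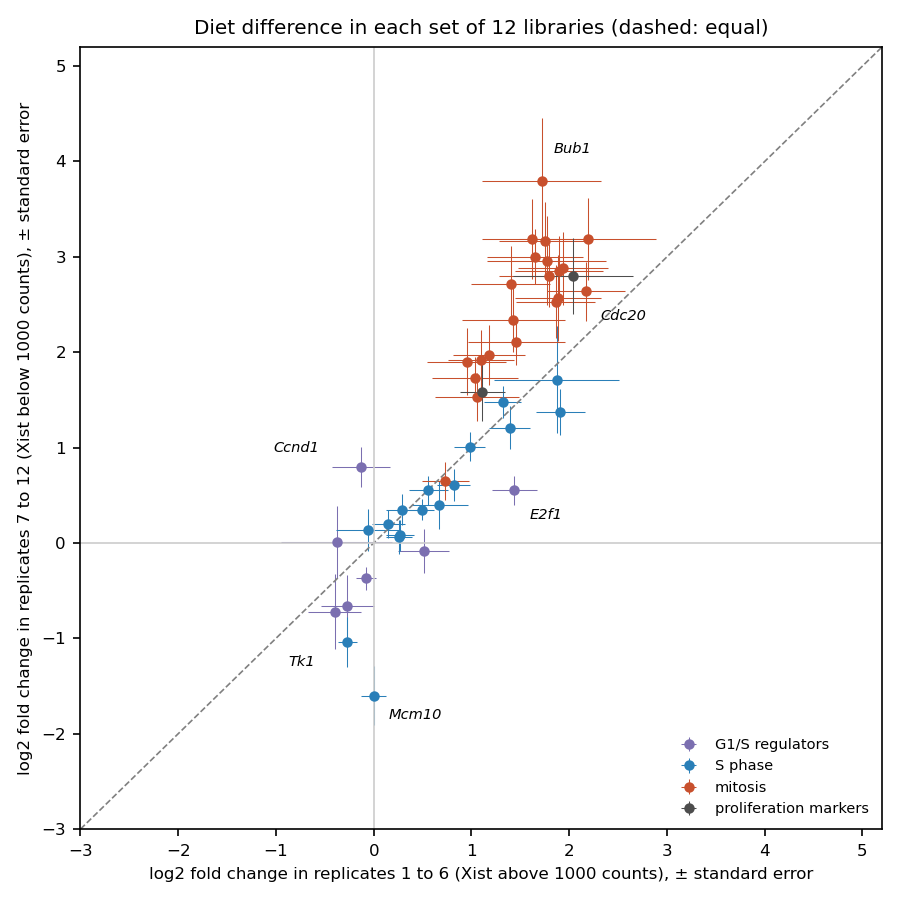
Log2 fold change of each of the 46 genes, high-fat minus control diet, in replicates 1 to 6 (horizontal axis, Xist above 1000 counts) and in replicates 7 to 12 (vertical axis, Xist below 1000 counts), with standard error bars, 6 libraries per diet in each set and a dashed line of equal values. Of the 21 mitosis genes 20 lie above the line, and of the 16 S phase genes 5 do. Mcm10 lies at 0 and -1.60, Tk1 at -0.27 and -1.04, and Mcm5 at 1.91 and 1.37.

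Markers of several cell types also differed between the diets, some higher and some lower, and their part in the results was not tested. Fewer cells of a type and less RNA per cell cannot be told apart in whole liver. All 8 hepatocyte markers had counts in all 24 libraries. Of these 5 were lower and none higher, and their sum was 39210 to 94170 CPM on the high-fat and 84190 to 136700 on the control diet. All 8 markers of monocyte-derived macrophages were higher, with sums of 317.5 to 1309 against 92.15 to 304.5 CPM, as were 5 of 6 of cholangiocytes, with Spp1 in both lists, 5 of 8 of stellate cells and myofibroblasts, 3 of 7 of resident macrophages and 1 of 6 of sinusoidal endothelial cells. That endothelial marker, Stab2, was at 0.57 and lost its call without high-fat diet replicate 3 (0.44, edgeR adjusted p = 0.0111). Over all genes tested 13.2% were called higher and 4.99% lower, and 1 of 6 lies near the share called higher. None of the 8 T and NK cell or the 5 B cell markers passed the test over all 24 libraries, and none did in the Xist-high set. In the Xist-low set 5 of the 8 T and NK cell and 1 of the 5 B cell markers were called higher, beside 14.4% of all genes. The 6 high-fat libraries of the Xist-low set had the highest monocyte-derived macrophage sums, 664.9 to 1309 CPM, and the lowest hepatocyte sums, 39210 to 50230 CPM, beside their mitosis sums of 52.57 to 99.51 CPM. Their cholangiocyte sums of 258.5 to 895.4 CPM and stellate cell sums of 604.8 to 841 CPM also lay above those of all other libraries. Their resident macrophage sums spread from 230.8 to 912.2 CPM, around those of the Xist-high high-fat libraries, 494.8 to 668.1.

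In high-fat diet replicate 3 some of the lists ran the other way. Its monocyte-derived macrophage sum of 317.5 CPM and its cholangiocyte sum of 32.18 CPM were the lowest of the high-fat libraries, and its hepatocyte sum of 94170 CPM was the highest of them, beside the highest mitosis sum of all libraries. Its resident macrophage sum of 668.1 CPM was the highest of its set. All 6 neutrophil markers tested were called higher over the 24 libraries and 2 without this library, and of the 7 erythroid markers 2 were called higher with it and none without it, when 1 was called lower. Mpo and Elane, enzymes of neutrophil precursors, were at 0 counts in 8 and 5 of the 12 control libraries. The mitosis sums of the other 11 high-fat libraries, 26.02 to 99.51 CPM, also lay above the highest control sum of 23.96.

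**Figure D5:**
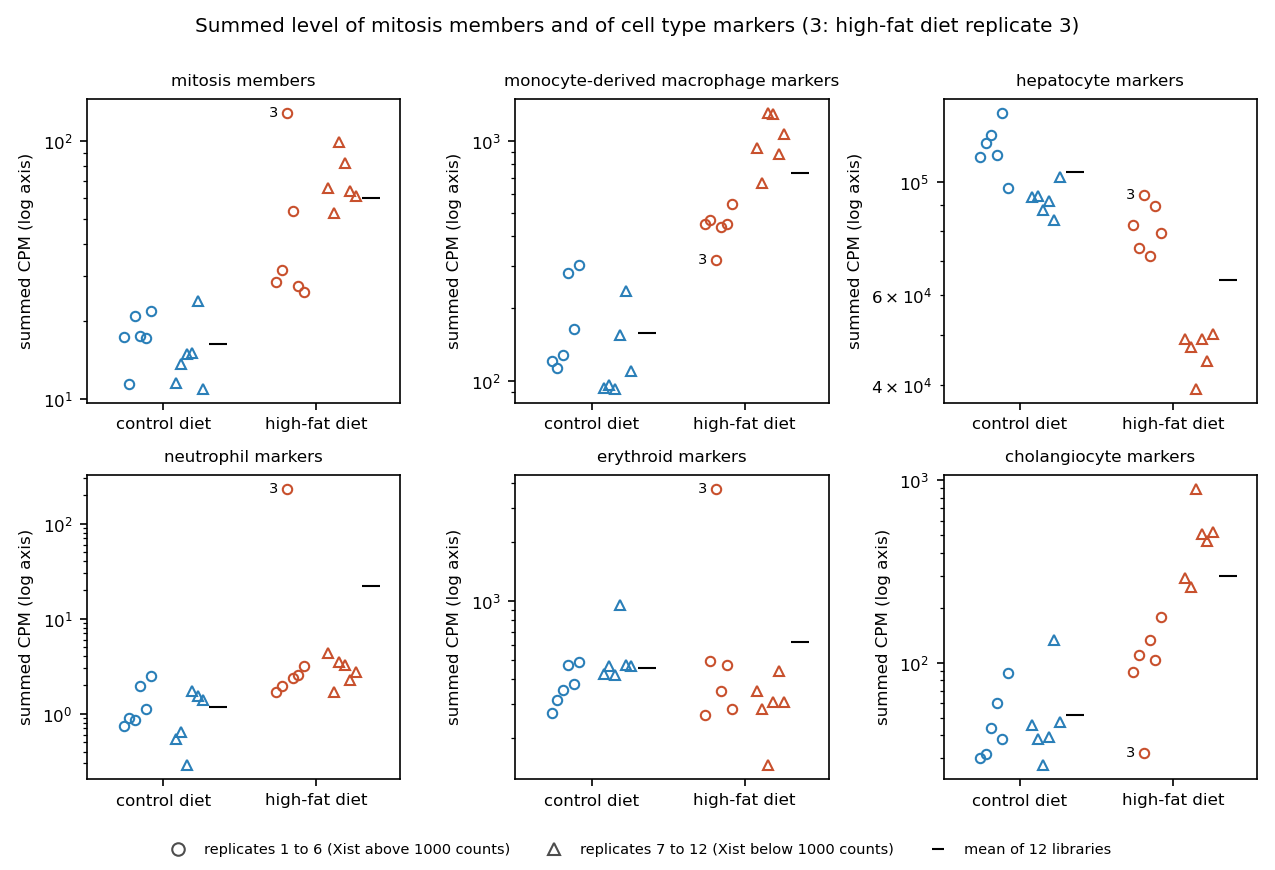
Summed CPM (log axis) of the 21 mitosis genes and of the markers of monocyte-derived macrophages, hepatocytes, neutrophils, erythroid cells and cholangiocytes in each library, with circles for replicates 1 to 6, triangles for replicates 7 to 12, a bar at the mean of each diet and the digit 3 at high-fat diet replicate 3. The mitosis sums do not overlap between diets, and replicate 3 lies far above the rest for neutrophil (233 CPM) and erythroid (3743 CPM) markers.

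Other genes of replication and mitosis were counted as well, beside 13.2% of all genes called higher. Of 59 other mitosis genes 47 were higher and none was lower, with a median log2 fold change of 1.60. The largest changes were those of Kifc1, a motor that focuses spindle poles (2.89, SE 0.39), Hmmr, a spindle protein (2.85, SE 0.49), and Pbk, a mitotic kinase (2.53, SE 0.40). Of 46 other replication genes 18 were higher and none was lower, with a median of 0.26. Those with the largest changes were Ticrr (2.87, SE 0.57) and Orc1 (2.77, SE 0.75), which act at replication origins, and Uhrf1 (2.7, SE 0.31), which passes DNA methylation on to the new strand. Orc1 had a median of 0 counts per control library and at most 18 counts in any library, and without high-fat diet replicate 3 it was at 2.02 and not called (edgeR adjusted p = 0.0141). The polymerase genes were not called as a group. Pold1 and Pole were called higher, at 0.65 and 0.94. Pola1 (0.33), Pola2 (0.16), Pold2 (-0.13), Pold3 (0.22) and Pole2 (0.79) did not pass. Of the primase genes, Prim2 was called higher at 0.82, while Prim1 at 0.49 did not pass. The ligase Lig1, which joins Okazaki fragments, rose by 1.17 (SE 0.15, edgeR adjusted p = 1.98e-06). Without high-fat diet replicate 3, 44 of the other mitosis and 15 of the other replication genes were higher, where 2394 of all 17913 genes were.

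The brakes on the cycle changed for some genes. Cdkn1a, the inhibitor p21, rose from 4.449 ± 4.48 CPM (SD, n = 12) on the control diet to 20.29 ± 8.033 (SD, n = 12) on the high-fat diet, a log2 fold change of 2.18 (SE 0.39, edgeR adjusted p = 9.21e-05). Cdkn3, a phosphatase that peaks in mitosis, rose by 1.99 (SE 0.47) and Rbl1, the pocket protein p107, by 0.88 (SE 0.19). The other 7 of the 10 genes in this list did not pass, where 13.2% of all genes were called higher. Values were 0.03 for Rb1, -0.39 for Rbl2, 0.69 for Cdkn2c, 0.35 for Cdkn2b, 0.17 for Cdkn2d, -0.03 for Cdkn1b and -0.05 for Cdkn1c. Cdkn2c differed between the sets, at 0.10 in the Xist-high and 1.57 in the Xist-low set (interaction edgeR adjusted p = 0.00188). An interaction passed for 4.06% of all genes tested. Of the other cyclins and their kinases, 1 of 7 tested was higher, near the share of 13.2% of all genes. It was Ccnd2, the second D cyclin, at 0.83 (SE 0.24, edgeR adjusted p = 0.00679). The log2 fold changes of the D cyclin kinases were -0.04 for Cdk4 and 0.22 for Cdk6, that of Ccnd3 was 0.17 and that of Cdc25a 0.36, while Ccnh and Cdk7 had -0.17 and -0.11. None of these passed. Of 13 measured factors of the E2F, DREAM and MYB-MuvB complexes, which switch the S phase and mitosis genes, 3 were higher and 1 lower. The activators E2f2 (1.49, SE 0.34), Mybl1 (1.45, SE 0.36) and Mybl2 (1.15, SE 0.32) were higher. Tfdp2, a partner of E2F factors, was lower (-0.51, SE 0.13). Of all genes tested 13.2% were called higher and 4.99% lower, and 1 of 13 lies near the share called lower. Without high-fat diet replicate 3, which had the highest level of E2f2 and Mybl2, Mybl2 was at 0.79 and not called (edgeR adjusted p = 0.014), while E2f2 was at 0.97 and still called (edgeR adjusted p = 7.72e-04).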

How the data were processed

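RNA-Seq counts of 24 libraries were analysed, 12 per diet as the labels give them. The deposited values are whole-number read counts for each Ensembl ID, without normalization by the authors. The submitters' processing notes name mm10, bcl2fastq and STAR 2.7.3a; the study's methods describe stranded TruSeq libraries and quantification with PISCES, but for a human Ensembl reference, so the counting program, its strand setting and the annotation of the mouse table remain unclear. Symbols and exon lengths were taken from GENCODE M21, which matched 51745 of 56205 IDs (the rest held 0.0723% of counts), and promoters from RefSeq. edgeR 4.0.16 in R 4.3.3 fitted the diet as the only term (TMM, quasi-likelihood F test, Benjamini-Hochberg) over 17913 genes that had 1 count or more in 12 libraries or more. Calls needed an adjusted p of 0.01 or less together with an absolute log2 fold change above 0.5, as the study set for human liver samples. SE is the log2 fold change over the root of F. The interaction fit added the Xist set (1000 counts). In simulated counts of this comparison (17913 genes), 75% of 200 genes changed by 1 on the log2 scale were called, as were 2 unchanged genes. The 200 were drawn from genes with a mean of at least 10 counts, so the 75% does not cover genes with fewer. No libraries agreed within sampling noise (lowest chi-square per degree of freedom 9.48 in high-fat and 17 in control pairs).

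Alternatives were DESeq2 1.42.0, limma-voom 3.58.1, other scalings, filters and thresholds, a replicate block, the Xist set as a covariate and each library left out. The Xist-high set without high-fat diet replicate 3 was added after seeing the data. Named genes were the 46 members and, in each further list, the 3 called genes with the largest change. In lists of at most 10 all tested genes were named. Marker genes were named beside the results they move with. Tfdp2, the polymerase and primase genes, Lig1 and the overlapping neighbours were named after their values were seen. Members, roles and lists were chosen with earlier results of these data known. Lin54 had no row.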

Additional observations from a re-analysis of the deposited data

Results flagged for a closer look

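With all 24 libraries, Mcm10 was the one gene of the 46 with a diet by set interaction that passed, beside 4.06% of all genes tested. Its diet difference differed between the libraries with Xist below and above 1000 counts by -1.60 on the log2 scale (standard error 0.35, edgeR adjusted p = 0.00441, 6 libraries per diet in each set). In the Xist-low set all 6 high-fat libraries lay below all 6 control libraries, and in the Xist-high set the diets overlapped. With each of the 24 libraries left out in turn the interaction ran from -1.71 to -1.11 and passed in all 24 fits, with edgeR adjusted p from 3.85e-04 to 0.00945. Without high-fat diet replicate 3, Tpx2 and Birc5 passed as well, and E2f1 and Tk1 each passed with 1 control library left out. The sets are a description of the libraries and not groups of the study.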

How the results depend on the processing

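All 1093 values that the alternatives gave for the 31 genes called higher were above 0. DESeq2 in place of edgeR gave 31 higher and 1 lower, and the replicate block 30 higher, 6 of the S phase and 21 of the mitosis genes, and 1 lower, which was Tk1 (-0.61, edgeR adjusted p = 0.00437) and not Mcm10 (-0.69, edgeR adjusted p = 0.0305). The libraries were not treated as paired: no label ties equal numbers together, and the deviations of same-numbered libraries correlated at over 0.1 in 11 of 12 pairs but at -0.0935 in 1, where all were required to exceed 0.1. Of the 24 libraries 6 correlated best with the library of the other diet that has their number. The deviations were taken from the mean of each diet, and libraries with equal numbers also share an Xist set. These correlations therefore cannot tell pairing from a shared set. With a library left out in turn, 31 genes were higher in every fit, with 7 to 7 of the S phase and 21 to 21 of the mitosis genes, 0 to 1 were lower, and 1 to 3 had an interaction. Asking for 10 counts or more in each library kept 25 of the 46 genes and only 3 of the mitosis genes, and gave 12 higher, all 3 mitosis genes among them, and 0 lower. With a log2 fold change over 1 as the threshold 4 S phase genes were higher. The count of lower genes was 0 with limma-voom, library totals, DESeq2's size factors, no filter on low counts and the Xist-high set, 2 with the set as a covariate and in the Xist-low set, and 3 at an adjusted p of at most 0.05 with no fold change threshold. The Xist-high set gave 9 higher genes, 2 of them mitosis genes, and 10 and 3 without high-fat diet replicate 3. For these counts the cause was not tested. Signs changed only for genes that had not passed, and for Mcm10. Ccnd1 had -0.13 in the Xist-high set, Ccne1 -0.08 in the Xist-low set and Cdk2 0.05 with library totals. E2f7 had 0.03 with library totals, 0.01 in the Xist-low set and -0.42 to 0.10 with a library left out. Rrm2 had -0.04 with limma-voom, -0.06 with the replicate block and in the Xist-high set, -0.14 to 0.10 with a library left out and -0.50 in the Xist-high set without high-fat diet replicate 3, where Mcm10 had 0.09. Depth limits the genes with under 10 counts in the median control library.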
